A study of Drosophila melanogaster with 6 samples.

Results

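The dpr, DIP and beat genes encode surface and secreted proteins with immunoglobulin domains through which Drosophila neurons recognise one another. They were taken here as every gene whose name in the expression table is dpr followed by a number or begins with DIP- or beat-. This rule gave 46 genes of the 17137 gene names listed, 21 dpr, 11 DIP and 14 beat genes, with 100 of the 36294 transcripts. The rule uses names alone.

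RNA was sequenced from pools of about 30 third-instar larval brains of the wild-type Canton S strain, collected 6 days after egg-laying. The 3 control pools came from larvae on standard food to which water was added when melted. The 3 alcohol pools came from larvae raised on standard food with alcohol added instead, to 5%. Alcohol food was topped up daily with dilute alcohol and control food was not, so alcohol and daily topping up cannot be told apart. Larvae were frozen whole before dissection, their sex was not given, and nothing says whether the pools of a group came from separate cultures, so p-values measure only the spread between these pools.

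Dpr proteins, named after the defective proboscis extension response of the first mutant, bind DIPs (Dpr-interacting proteins) in specific pairs. Both families are expressed in small and overlapping sets of neurons, and in the optic lobe and at the neuromuscular junction their pairs take part in partner choice, layer targeting and the survival of some neurons. The beaten path (beat) proteins bind members of the sidestep (side) family, and beat-Ia and side guide motor axons out of their bundles towards muscle.

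All 46 genes had reads in every pool, but their levels were low and unequal. Levels are given as FPKM, sequenced fragments scaled by transcript length and by the mapped fragments of the pool, summed over the transcripts of a gene, and can be compared between genes because they are scaled by length. The median gene had a mean over the 6 pools of 8.53 FPKM in the dpr family, 6.35 FPKM in the DIP family and 8.41 FPKM in the beat family. The range ran from 2.29 to 95.3 FPKM for dpr, from 1.52 to 8.74 FPKM for DIP and from 5.07 to 28.1 FPKM for beat genes. The highest DIP gene was close to the median dpr gene.

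The most abundant member was dpr7, the one member on the small chromosome 4 (247124 to 253329, dm6 assembly, as are all positions here). Its level was 74.4, 69.7 and 120 FPKM in control pools 1, 2 and 3, and 94.6, 125 and 87.9 FPKM in alcohol pools 1, 2 and 3. Control pool 3 and alcohol pool 2 stood above the other 4 pools, and the groups overlapped. Next came dpr21, with 33.6, 31.5 and 47.8 FPKM in control pools and 27.6, 47.9 and 36.8 FPKM in alcohol pools. The third was dpr12, the binding partner of DIP-delta, with 23.4, 26.6 and 36.4 FPKM against 29.8, 40.8 and 25.6 FPKM. For both genes the same pair of pools was highest and the groups overlapped. The means of dpr7, 95.3 FPKM, and dpr21, 37.5 FPKM, differed by more than either gene's spread over pools. The values of dpr21 and dpr12 overlapped, and dpr19 (21.8 FPKM) and dpr4 (20.9 FPKM) lay within one another's spread. At the low end of the family were dpr16 with 3.17 FPKM and dpr2 with 2.29 FPKM.

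DIP-theta was the most abundant DIP gene, at 7.06, 7.42 and 11 FPKM in control pools and 8.27, 11.6 and 7.12 FPKM in alcohol pools. DIP-epsilon followed, with 7.5, 7.41 and 10.3 FPKM in control pools and 6.97, 10.2 and 6.54 FPKM in alcohol pools. DIP-beta, a partner of dpr8, dpr9 and dpr21, had 6.18, 6.09 and 9.52 FPKM in control pools and 7.61, 12.4 and 6.56 FPKM in alcohol pools. The 5 highest DIP genes, from DIP-theta at 8.74 FPKM to DIP-eta at 7.83 FPKM, could not be ranked beyond the spread between pools. DIP-alpha, which acts with dpr6 and dpr10 in the wiring of medulla and motor neurons, was lower, at 3.22 FPKM, and DIP-iota was the lowest of all members, at 1.52 FPKM.

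Among the beat genes beat-IIa, a partner of side-IV, led with 22.0, 23.1 and 38.8 FPKM in control pools and 24.9, 37.0 and 22.7 FPKM in alcohol pools. Second was beat-VI, a partner of side-II, with 12.0, 12.9 and 22.1 FPKM against 15.9, 21.1 and 14.5 FPKM. The founding member beat-Ia had 9.69, 12.5 and 18.4 FPKM in control pools and 12.0, 17.6 and 11.7 FPKM in alcohol pools. In each of them control pool 3 was highest and alcohol pool 2 next, with no separation by treatment. The level of beat-IIIa may hold reads of CG34106, which lies on the same strand and shares 4457 exon bases with it but was itself listed at a mean of 0.523 FPKM.

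**Figure D1:**
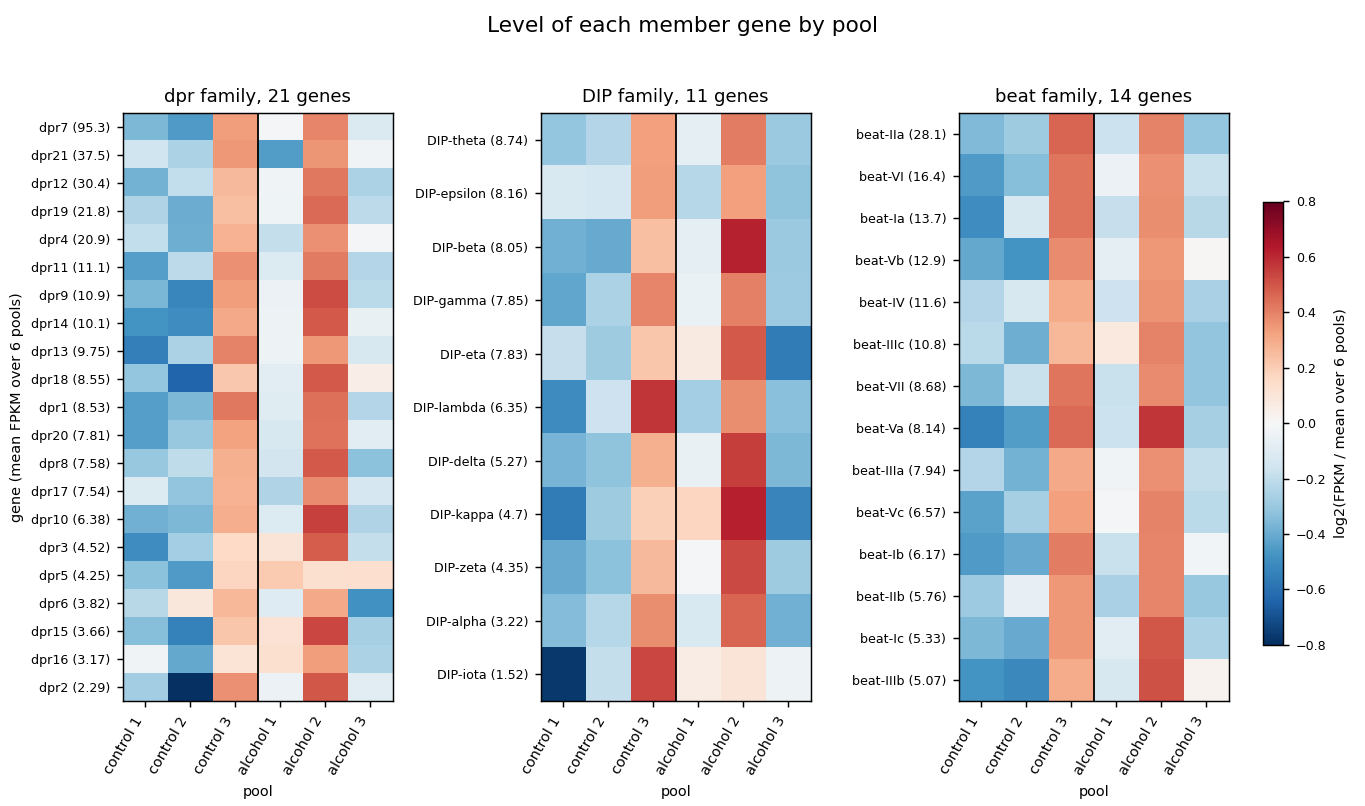
Level of each of the 46 genes in each of the 6 pools, as log2 of the FPKM over that gene's mean across the pools (colour), with that mean in FPKM beside the gene name. Control pool 3 and alcohol pool 2 are above the gene's mean in all 46 genes, and the 3 families show the same pattern of pools.

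The members rose and fell together from pool to pool, and the pools that set them apart were not those of 1 treatment. Control pool 3 and alcohol pool 2 were the 2 highest pools for 44 of the 46 genes, or 95.7%, the exceptions being dpr5 and dpr16. Among all 8707 genes with a mean in the range of the members the same 2 pools were highest for 2112, or 24.3%. Alcohol pool 2 was the highest pool for 35 members, control pool 3 for 10 and alcohol pool 1 for 1. The lowest pool was control pool 1 for 21 members, control pool 2 for 17, alcohol pool 3 for 7 and alcohol pool 1 for 1.

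On the log2 scale the median member lay at -0.29, -0.24 and 0.31 relative to its own mean in control pools 1, 2 and 3, and at -0.04, 0.39 and -0.18 in alcohol pools 1, 2 and 3. The median of all genes in that range stayed between -0.08 and 0.05. The coefficient of variation over the 6 pools was 25.4% for the median member, from 18.4% in dpr16 to 34.2% in beat-Va, against 13.9% for the median gene in the range.

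The sums by family repeated this pool pattern. The 21 dpr genes added up to 253, 246 and 391 FPKM in control pools and to 297, 419 and 288 FPKM in alcohol pools. The 11 DIP genes gave 52.0, 55.2 and 83.0 FPKM against 63.1, 91.1 and 51.8 FPKM, and the 14 beat genes gave 114, 120 and 193 FPKM against 136, 194 and 127 FPKM. The alcohol mean over the control mean was 1.13 for dpr, 1.08 for DIP and 1.07 for beat genes. The mean dpr sum was 297 ± 81.9 FPKM in control and 335 ± 73.3 FPKM in alcohol pools (SD, n = 3 each), a difference smaller than either SD, and the families' ratios ran from 0.907 to 1.34 when 1 pool was left out. Without control pool 3 the dpr ratio was 1.34, and without alcohol pool 2 the DIP ratio was 0.907.

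Neuron marker genes moved with the members. The 6 neuron markers (elav, nSyb, brp, Syt1, Rdl and para) summed to 229, 250 and 371 FPKM in control pools and to 289, 405 and 247 FPKM in alcohol pools, and all 6 had control pool 3 and alcohol pool 2 as their highest pools. The members' sum per neuron marker sum was 1.83, 1.68 and 1.80 in control pools and 1.72, 1.74 and 1.89 in alcohol pools. That ratio was 1.77 ± 0.0756 (SD, n = 3) in control and 1.78 ± 0.0920 (SD, n = 3) in alcohol pools, so the pool pattern of the members was also that of the neuron markers. In pooled brains fewer neurons and less RNA per neuron cannot be told apart. By family the ratio to neuron markers was 1.05 ± 0.0605 in control against 1.08 ± 0.0764 in alcohol pools for dpr genes (SD, n = 3 each). It was 0.224 ± 0.00285 against 0.218 ± 0.00781 for DIP genes and 0.498 ± 0.0205 against 0.488 ± 0.0224 for beat genes. The groups overlapped in each family. The paper lists transcripts of nSyb and Syt1, which are among the 6 markers, as upregulated by alcohol. The marker sum may therefore not be neutral to treatment.

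Markers of other cells did not all follow. Of the 5 glia markers 4 had the same highest pools, with sums of 130 to 219 FPKM in control and 153 to 204 FPKM in alcohol pools, and of the 4 neuroblast markers 1 did, with sums of 71.1 to 91.2 FPKM and 67.1 to 83.3 FPKM. None of the 5 markers each of developing eye, muscle, fat body, salivary gland and hemocytes did, and 1 of the 5 ring gland markers did. Salivary gland markers reached a sum of 14023 to 55711 FPKM in control and 29480 to 44458 FPKM in alcohol pools, and fat body markers 1909 to 5756 FPKM and 562 to 3100 FPKM. Muscle markers were at 47.9 to 415 FPKM and 82.1 to 326 FPKM. Control pool 3 and alcohol pool 2, where the members were high, had the lowest fat body sum of their group, 1909 and 562 FPKM, and the lowest FPKM totals of all pools, 502497 and 507139. Control pool 3 also had the lowest salivary gland sum, and alcohol pool 2 the lowest muscle sum of the alcohol pools, 82.1 FPKM against 326 and 299 FPKM. Among control pools, however, muscle was lowest in control pool 2, at 47.9 FPKM against 57.6 FPKM in control pool 3. Among alcohol pools salivary gland was lowest in alcohol pool 3, at 29480 FPKM against 34712.5 FPKM in alcohol pool 2. No neuron, glia or neuroblast marker was at 0 in a pool, and neither was any marker of the other tissues. The part of those tissues in the members' levels was not tested.

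**Figure D2:**
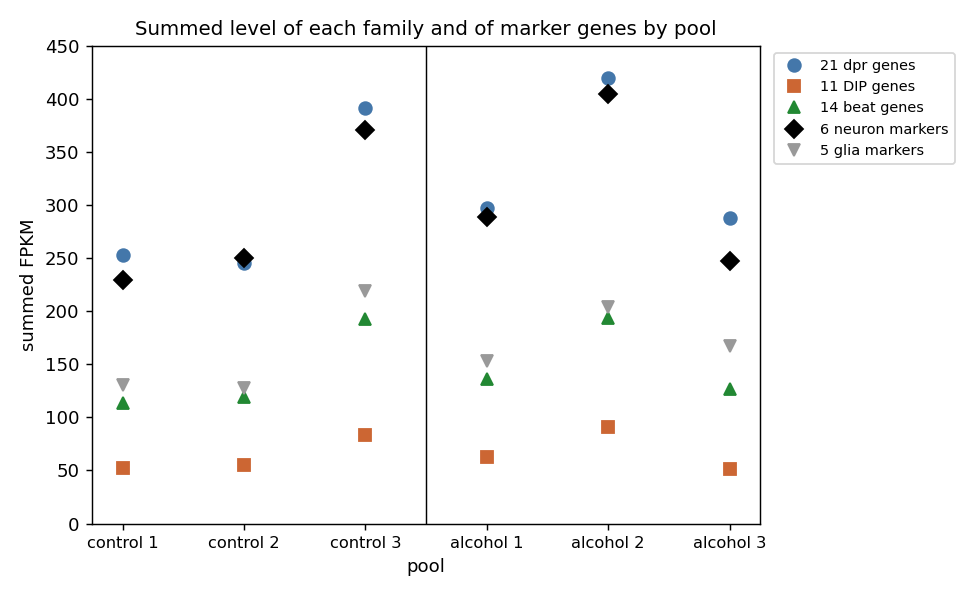
Summed FPKM of the 21 dpr, 11 DIP and 14 beat genes and of 6 neuron and 5 glia markers (vertical axis) in each of the 6 pools (horizontal axis), 1 point per pool and list. In every list plotted the points of control pool 3 and alcohol pool 2 are the highest, and control and alcohol pools overlap.

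Both sides of a binding pair shared the pool pattern, and the balance within most pairs varied less than the levels did. Receptor pairs were taken as known from binding studies, and each ratio was the summed FPKM of the DIP or beat genes over that of their partners within 1 pool. For DIP-alpha over dpr6 and dpr10 it was 0.310, 0.304 and 0.336 in control and 0.312, 0.318 and 0.303 in alcohol pools, a mean of 0.317 ± 0.0170 against 0.311 ± 0.00719 (SD, n = 3 each). For DIP-gamma, which acts in photoreceptor circuits of the medulla, over dpr11, dpr15, dpr16 and dpr17 it was 0.278, 0.320 and 0.331 against 0.313, 0.306 and 0.291. For DIP-delta over dpr12 it was 0.174, 0.159 and 0.176 against 0.170, 0.189 and 0.161. In these 3 pairings the groups overlapped and the difference of the means was within the spread.

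DIP-beta over dpr8, dpr9 and dpr21 gave 0.128, 0.133 and 0.135 in control and 0.169, 0.167 and 0.126 in alcohol pools. Alcohol pools 1 and 2 were above every control pool and alcohol pool 3 below them. DIP-eta, DIP-theta and DIP-iota over dpr1 to dpr5 gave 0.449, 0.494 and 0.451 against 0.472, 0.460 and 0.360, with alcohol pool 3 alone lowest. DIP-eta had its lowest level, 5.32 FPKM, in that pool.

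The ratio of DIP-zeta and DIP-epsilon to dpr13, dpr14, dpr19 and dpr20 was the one of the 10 pairings in which the groups did not overlap. It was 0.283, 0.284 and 0.255 in control pools and 0.236, 0.246 and 0.225 in alcohol pools, a mean of 0.274 ± 0.0165 against 0.236 ± 0.0104 (SD, n = 3 each). With 3 pools against 3 an exact two-sided permutation test cannot go below a p of 0.1, and 10 ratios were looked at, so this is given as a description. Neither side of the pairing was separated by itself.

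The summed level of 1 to 3 beat genes was 1.69 to 4.02 times that of the side gene they bind. Single genes could be lower than their partner, as beat-IIb (5.76 FPKM) was than side-IV, with 15.8 FPKM in control and 15.6 FPKM in alcohol pools. The ratio of beat-Ia to side was 1.99, 1.69 and 2.27 in control and 1.74, 2.05 and 2.34 in alcohol pools. That of beat-IIa and beat-IIb to side-IV was 1.96, 1.85 and 2.51 against 1.95, 2.19 and 2.42. beat-Va, beat-Vb and beat-Vc over side-VI gave 3.25, 2.56 and 3.29 against 3.33, 3.19 and 4.02, and beat-VI over side-II gave 2.12, 1.89 and 2.60 against 2.05, 2.21 and 2.45. The groups overlapped in all 4.

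**Figure D3:**
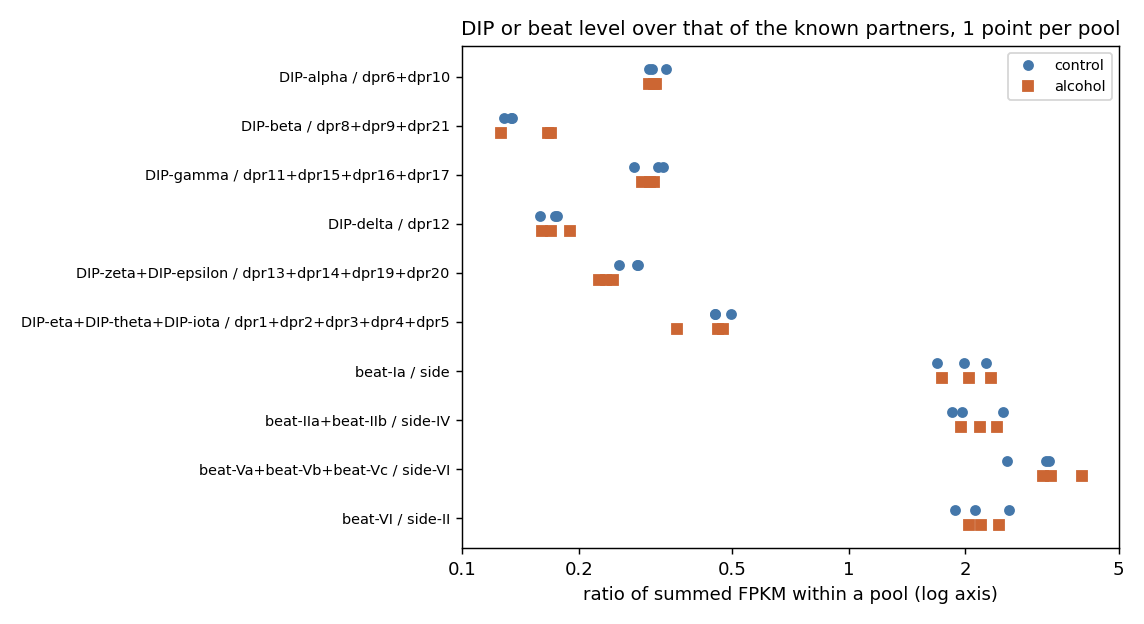
Summed FPKM of the DIP or beat genes over that of their known partners (horizontal log axis), with 1 point per pool, control as circles and alcohol as squares. Only the ratio of DIP-zeta and DIP-epsilon to its partners has no overlap, at 0.255 to 0.284 in control and 0.225 to 0.246 in alcohol pools.

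Between alcohol and control no member gene was called as differentially expressed. The test was limma's moderated test on log2(FPKM + 1) with a library-size covariate, for genes with a variance of FPKM above 1 over the pools, and a call was an unadjusted p under 0.05 with more than a 2-fold change. Of the 46 members 40 passed that filter and 0 were called, also in each alternative run, against 101 of 8247 genes tested, or 1.22%. At an unadjusted p under 0.05 there were 0 members in the main fit, against 2.44% of all genes. None of the 8247 genes passed a Benjamini-Hochberg adjusted p under 0.05. On rescaling each pool to the same total 1 of 45 members had an unadjusted p under 0.05, against 537 of 10224 genes. Without control pool 3, alcohol pool 2 and the covariate 2 of 15 did, against 262 of 7783 genes.

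The alcohol and control pools overlapped for all 46 members, whereas they were separate for 6.21% of the genes tested. In the fit with the covariate 13 of 40 members had a log2 fold change above 0, with a median of -0.07. Without the covariate 35 of 40 did, with a median of 0.15. Over all genes the share above 0 was 49.9% with the covariate and 40.6% without. The direction of the families also turned in runs that kept the covariate. With each pool rescaled to the same total 45 of 45 members were above 0, against 6324 of 10224 genes. Leaving out control pool 3 gave 36 of 40 members, against 5241 of 8173 genes. Treatment explained 40.3% of the variance of the covariate. Without the covariate the log2 fold changes lay between -0.09 and 0.35.

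The largest fitted difference belonged to DIP-lambda, at 4.49, 5.66 and 9.45 FPKM in control and 5.26, 8.20 and 5.04 FPKM in alcohol pools. Its log2 fold change was -0.42 (SE 0.319) with an unadjusted p of 0.246 and an adjusted p of 0.997 in limma's test. The most positive was dpr18, at 6.89, 5.51 and 9.91 FPKM in control and 8.08, 12.0 and 8.88 FPKM in alcohol pools, and its log2 fold change was 0.18 (SE 0.316), at an adjusted p of 0.997. Neither pair of groups was separate, and each sign turned under at least 1 alternative. Standard errors over the 40 members ran from 0.267 to 0.39, and no member was more than 2 standard errors from 0.

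By family, 7 of 17 tested dpr genes, 4 of 9 DIP genes and 2 of 14 beat genes had a log2 fold change above 0 with the covariate, and 16, 7 and 12 did without it. The 6 members left out of the test by the variance filter were dpr2, dpr5, dpr6, dpr16, DIP-alpha and DIP-iota, all with means under 5 FPKM. Of these dpr5 came nearest to separation, with 3.38, 3.11 and 4.78 FPKM in control and 4.92, 4.63 and 4.66 FPKM in alcohol pools, and control pool 3 lay among the alcohol pools.

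Other recognition genes gave no call either. Of the 8 side genes, the partners of the beat proteins, 8 were tested and 0 were called, with a median log2 fold change of -0.19 with the covariate and 0.01 without it. Of 28 further surface recognition genes (among them Fas2, Nrg, CadN, the Dscam and the robo genes) 26 were tested and 0 were called, with a median of -0.25 with the covariate and -0.14 without. Control pool 3 and alcohol pool 2 were the 2 highest pools for 6 of the 8 side genes and for 18 of the 28 others. In the same fit 2 of 5 muscle and 3 of 5 salivary gland markers were called as higher in alcohol, and without the covariate none of these but 2 of 5 fat body markers were, as lower in alcohol.

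**Figure D4:**
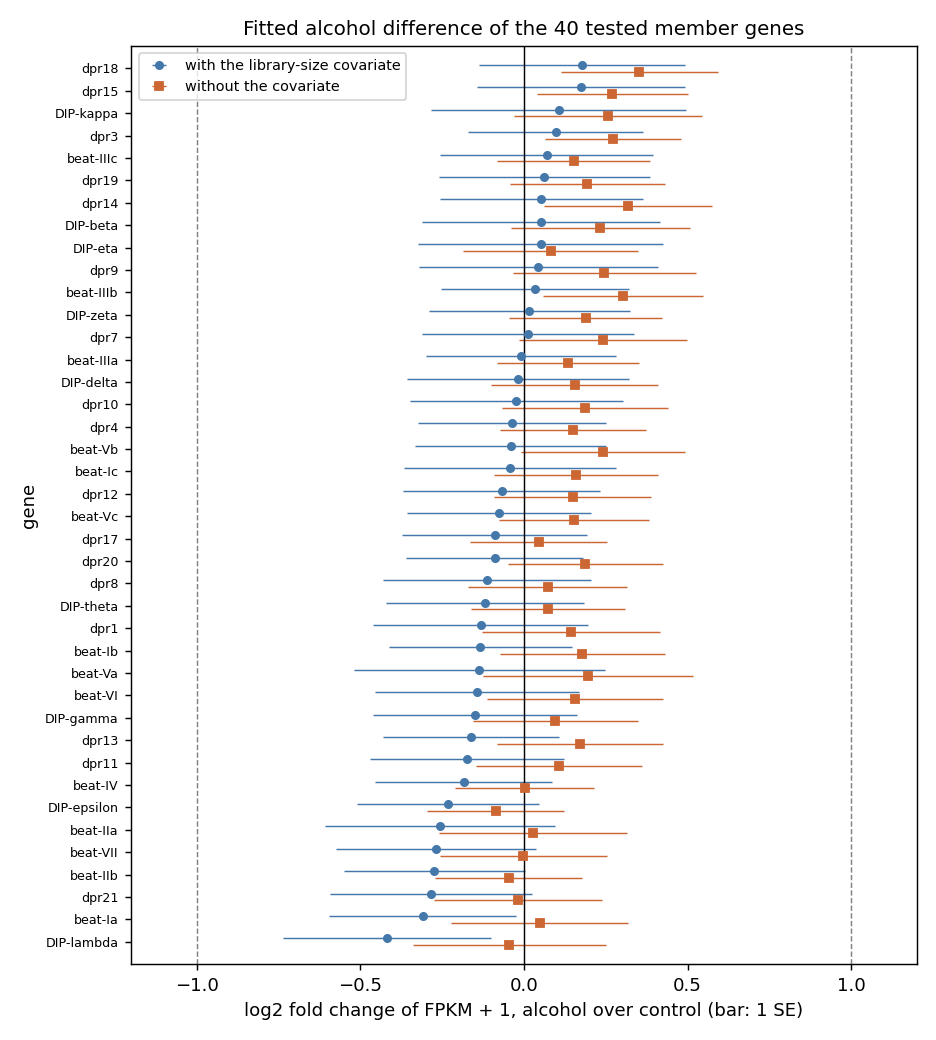
Fitted log2 fold change of FPKM + 1, alcohol over control (horizontal axis, bars of 1 SE), for the 40 tested genes with the library-size covariate (circles) and without it (squares), and dashed lines at a 2-fold change. With the covariate 13 points lie above 0, without it 35 do, and none reaches the lines.

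Single transcripts were called where gene sums were not. Of the 100 member transcripts 55 passed the variance filter, and 4 of them, or 7.27%, were called, 2 higher and 2 lower in alcohol, from DIP-beta, dpr15 (2 transcripts) and dpr19. Over all 14645 transcripts tested 564, or 3.85%, were called, 2.03% higher and 1.82% lower, and none of the 14645 had an adjusted p under 0.05. Under the alternatives run between 2 and 6 member transcripts were called, and the split by direction varied. With each pool rescaled to the same total and the covariate kept, 4 were called higher and 0 lower. Without the covariate 3 were called higher and 0 lower. There dpr15-RB (unadjusted p of 0.0666) and dpr19-RB (unadjusted p of 0.139 in limma's test) were no longer called, and dpr10-RC was. These values rest on how the quantification splits reads among transcripts that share most of their exons, and no reads were analysed here.

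DIP-beta (X, 21422115 to 21457738) carried most of its level in each pool on DIP-beta-RC or DIP-beta-RG. A further long transcript, DIP-beta-RF, was at 0 in all pools. The called transcript DIP-beta-RG was at 0, 0.168 and 0.455 FPKM in control pools 1, 2 and 3 and at 7.01, 2.81 and 6.46 FPKM in alcohol pools. All 3 alcohol pools were above all 3 control pools, as in 2 of the 55 member transcripts tested. In all transcripts tested the groups were separate for 7.72%, and for 2.82% with alcohol higher. The log2 fold change of DIP-beta-RG was 2.18 (SE 0.478), with an unadjusted p of 0.00684 and an adjusted p of 0.744 in limma's test. It was called in 17 of 18 alternatives, all but the fit with both the replicate block and the covariate.

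The partner transcript DIP-beta-RC was at or near 0 in alcohol pools 1 and 3 alone. It was at 5.78, 5.58 and 8.74 FPKM in control pools and at 0.134, 8.98 and 0 FPKM in alcohol pools. DIP-beta-RG held 92.0% of the gene in alcohol pool 1 and 98.4% in alcohol pool 3, against 0% to 4.78% in control pools. Alcohol pool 2 lay between, with 22.8% on DIP-beta-RG and 72.7% on DIP-beta-RC, which held 91.6% to 93.6% in control pools. The fitted difference of DIP-beta-RC, -2.0 (SE 1.30), was not called (unadjusted p of 0.189 in limma's test).

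The 2 transcripts differ in coding sequence and in nothing else. DIP-beta-RC has 33 coding bases (21441585 to 21441617) and 30 coding bases (21441725 to 21441754) that DIP-beta-RG lacks, with coding lengths of 1665 and 1602 bases. Each of the 2 has 0 exon bases that no other matched transcript of the gene holds. Their sum was 5.78, 5.75 and 9.20 FPKM in control and 7.14, 11.8 and 6.46 FPKM in alcohol pools. The sum was highest in control pool 3 and alcohol pool 2, as in the other members, so the difference lay in the split and not in the total.

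The transcripts of dpr10 (3L, 10147454 to 10186108), a partner of DIP-alpha, were also set apart by alcohol pools 1 and 3. dpr10-RD was at 4.8, 4.38 and 6.16 FPKM in control and at 0, 7.71 and 0 FPKM in alcohol pools. dpr10-RC was at 0.0862, 0.602 and 1.64 FPKM in control and at 5.85, 1.60 and 4.93 FPKM in alcohol pools. Alcohol pools 1 and 3 again differed from the controls, with 98.9% and 91.3% of the gene on dpr10-RC, and alcohol pool 2 lay in the control range, with 17.2% against 1.76% to 21.1% in control pools.

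Neither dpr10 transcript was called, with log2 fold changes of 1.06 (SE 0.634, unadjusted p of 0.158 in limma's test) for dpr10-RC and -1.75 (SE 1.26, unadjusted p of 0.225) for dpr10-RD. dpr10-RC was called without the covariate, at a log2 fold change of 1.51. It holds a coding exon of 138 bases (10153613 to 10153750) that dpr10-RD lacks, and the rest of the difference is noncoding, 98 bases in dpr10-RC and 15 bases in dpr10-RD. dpr10 was added to the named transcripts after its values were seen.

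dpr15 (3R, 12138833 to 12158595), a partner of DIP-gamma, had both its transcripts called. dpr15-RA was at 2.89, 0.15 and 1.02 FPKM in control and at 3.96, 5.29 and 3.04 FPKM in alcohol pools, with no overlap of the groups. Its log2 fold change was 1.85 (SE 0.527) with an unadjusted p of 0.0185 and an adjusted p of 0.874 in limma's test. dpr15-RB was at 2.36 and 3.25 FPKM in control pools 2 and 3 and listed at 0 in control pool 1 and in all 3 alcohol pools, so that control pool 1 had the alcohol arrangement.

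The fitted value of dpr15-RB was -2.23 (SE 0.401, unadjusted p of 0.00304, adjusted p of 0.543), a size set by the pseudocount because the alcohol pools are at 0. The pair is told apart by 16 noncoding bases (12156606 to 12156621) in dpr15-RA, and both have the same 1986 coding bases. Read coverage of the pair was at most 21.3 reads per base for dpr15-RA and 12.8 for dpr15-RB. dpr15-RA was called in 14 of 18 alternatives and dpr15-RB in 11 of 17.

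The fourth call was dpr19-RB of dpr19 (2L, 10376168 to 10379905), a partner of DIP-zeta and DIP-epsilon. It was at 0.674, 4.49 and 4.79 FPKM in control and at 1.68, 0.544 and 0.786 FPKM in alcohol pools, so control pool 1 lay among the alcohol pools. Its log2 fold change was -1.66 (SE 0.587), with an unadjusted p of 0.0392 and an adjusted p of 0.999 in limma's test. dpr19-RB was called in 4 of 18 alternatives and had 1.82% to 27.2% of the gene, the leading transcript being dpr19-RA with 11.4 to 27.6 FPKM. The 2 differ in their 5′ noncoding exons, of 310 bases in dpr19-RB and 331 bases in dpr19-RA, and share the 1155 coding bases.

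**Figure D5:**
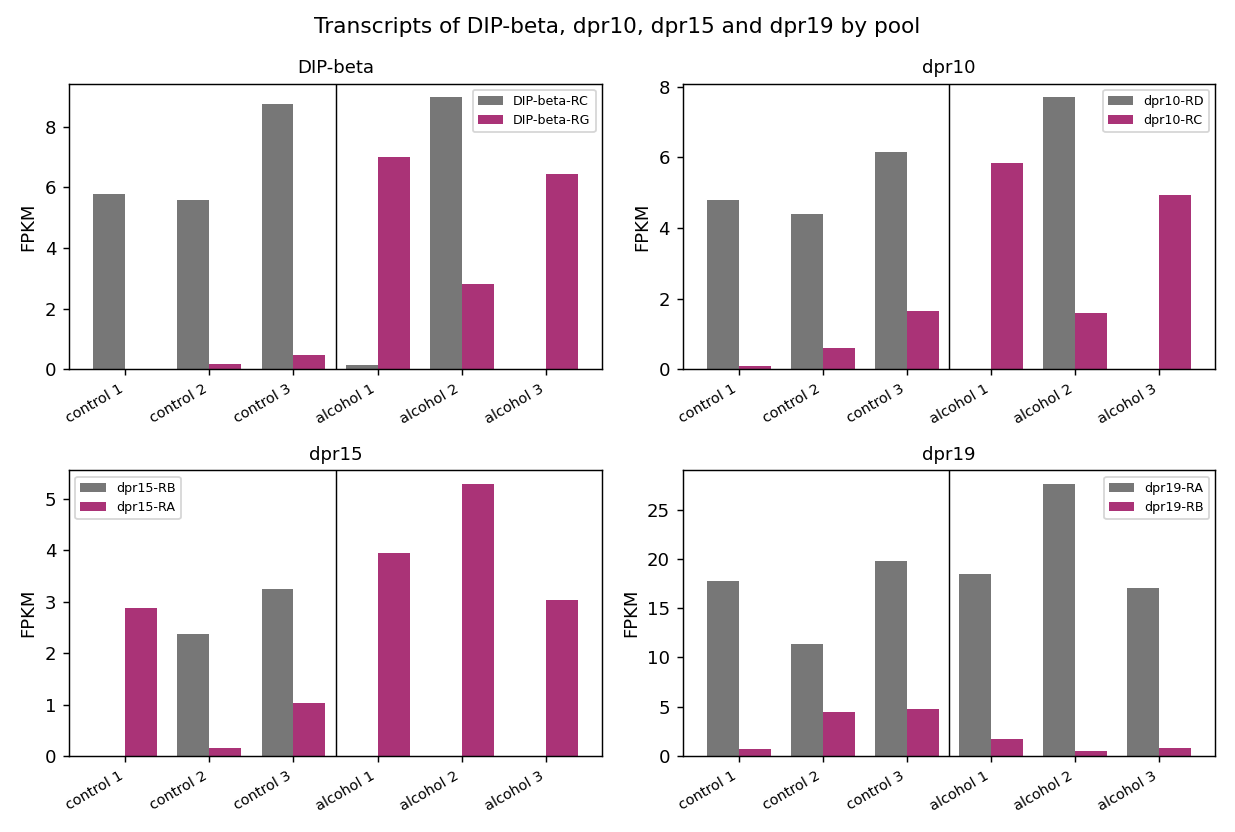
FPKM of 2 transcripts each of DIP-beta, dpr10, dpr15 and dpr19 (vertical axes) in each of the 6 pools (horizontal axes), 1 bar per pool and transcript. DIP-beta and dpr10 change leading transcript in alcohol pools 1 and 3, and dpr15-RB has a bar in control pools 2 and 3 alone.

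Whether the transcripts of a gene changed unequally was asked with an F-test per gene (diffSplice in limma) where at least 2 transcripts were tested. Of 15 members tested dpr15 was called, with an F of 35.5 and an adjusted p of 0.0451, against 38 of 3630 genes, or 1.05%. This call was lost without the covariate and on leaving out any single pool, where the adjusted p of dpr15 was between 0.0579 and 0.125 in limma's test. DIP-beta (unadjusted p of 0.0261, adjusted p of 0.356) and dpr19 (0.0291 and 0.365) were under an unadjusted p of 0.05 in limma's test, as were 11.5% of all genes tested. Without alcohol pool 2, the only alcohol pool in which both genes kept the leading transcript of the controls, DIP-beta and dpr10 were called. Their adjusted p were 0.00781 and 0.0212 in limma's test, and 2 of 11 members were called against 42 of 3553 genes. That run drops the pool that differed from the other alcohol pools, so it cannot decide whether the groups differ.

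Changes of leading transcript from pool to pool were common and mostly did not follow treatment. Of the 35 members with at least 2 transcripts 24, or 68.6%, had the same leading transcript in all 6 pools, against 63.3% of 5231 genes in the same range of levels. The other 11 included dpr3, whose dpr3-RD held the whole level in 5 pools and whose dpr3-RB held 80.2% in alcohol pool 2. They also included beat-Vb, in which beat-Vb-RA was at 5.25, 9.14 and 7.17 FPKM in control and 5.79, 16.0 and 8.19 FPKM in alcohol pools while beat-Vb-RB was at 4.50, 0.16 and 9.65 FPKM against 6.51, 0.458 and 4.85 FPKM. Control pool 2 and alcohol pool 2 thus shared an arrangement in beat-Vb that the other 4 pools lacked.

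For DIP-zeta the leading transcript was DIP-zeta-RB in 4 pools and DIP-zeta-RA in control pool 2 and alcohol pool 3. By contrast, dpr7 had dpr7-RF as its leading transcript in every pool, at 38.7, 40.9 and 85.4 FPKM in control and 69.4, 85.2 and 59.4 FPKM in alcohol pools, with dpr7-RG at 25.2 to 39.6 FPKM. The pool pattern of the members was thus seen in dpr7-RF and less in dpr7-RG. Of the 45 member transcripts below the variance filter, 2 had groups that did not overlap. The share over all transcripts below the filter was not computed. Above the filter it was 7.72% of all transcripts, so these 2 are given as values only. dpr5-RB was higher in all 3 alcohol pools (0.347, 0.760 and 1.63 FPKM against 0.082, 0.338 and 0.101 FPKM). dpr9-RA was lower in all 3 (0.048, 0.015 and 0.024 FPKM against 0.128, 0.059 and 0.138 FPKM). These levels are mostly near 0, and both transcripts were left out of the main fit and entered the fit without a filter.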

How the data were processed

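The authors trimmed reads of stranded poly-A libraries with Trimmomatic 0.39, aligned them to dm6 with HISAT2 2.2.0 and quantified transcripts with StringTie 2.1.4. They deposited the FPKM and the mean read coverage (a signal per base) of each transcript and pool, and a table of their own fold changes, p-values and q-values, which was not used. The strand setting of the quantification is not given in the sources used here. Of the members' exons, 3 genes overlap another gene on the same strand and 5 on the other strand. Aligned bases, from coverage, were 2719 to 4244 megabases a pool, and no read counts were analysed, so precision is given by the spread between pools.

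FPKM were summed by gene name. Features with a variance above 1 were tested on log2(FPKM + 1) with limma 3.58.1 in R 4.3.3, with a term for treatment and one for library size as in Ballgown (log2(FPKM + 1) added up over the nonzero filtered transcripts of a pool that lie below its 75th percentile), with Benjamini-Hochberg adjustment over all features tested. Calls had an unadjusted p under 0.05 and more than a 2-fold change (log2 above 1 either way). Usage was called at an adjusted p under 0.05. The fit was tested on simulated data. Exons came from the Ensembl annotation of the same assembly, matched for 98 of 100 transcripts. Tables and plots used Python 3.11.15, pandas 2.3.3, numpy 2.4.6 and matplotlib 3.10.9.

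Named in every pool were the 3 most abundant members of each family, called members and members whose groups do not overlap. Binding partners were given in every pool as ratios within pairings, and only some of them also by level. Members, lists and tests were chosen with earlier results of these data known.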

Additional observations from a re-analysis of the deposited data

How the results depend on the processing

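No member gene was called in any of the alternatives. The median log2 fold change of the members, -0.07 in the main analysis, turned positive without the covariate (0.15). It was also positive with a replicate block (0.15) and with quantile normalization (0.24), both without the covariate. With each pool rescaled to the same total and the covariate kept it was 0.50. Leaving out 1 pool gave medians from -0.23 to 0.35. Added after seeing the data, leaving out control pool 3 and alcohol pool 2 together gave 0.30 with and 0.19 without the covariate, over the 15 members (of 40) that then passed the filter and beside a median of all genes of 0.11 with it, and a covariate from gene sums gave -0.02. DIP-lambda turned to 0.31 on rescaling and 0.15 on quantile normalization, dpr18 (-0.084 to 0.66 on leaving out 1 pool) to its lowest value without control pool 2, and dpr10-RC to -0.31 with the replicate block and the covariate.

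Of 4 member transcripts called, 2 were left with the ordinary F-test (1 higher, 1 lower), 4 higher and 0 lower were called on rescaling and 3 and 0 on quantile normalization, and 3 to 6 on leaving out 1 pool. Calls of usage fell from 1 to 0 members without the covariate. They did so too with a filter on a mean FPKM of at least 1, under which dpr15 was not tested. Without control pool 3 and alcohol pool 2 there were also 0, but 2 members (DIP-beta and dpr10) were called when the covariate was also dropped. That last run also lacks alcohol pool 2, in which both genes kept the control arrangement, and 55 of 3444 genes were called in it. On leaving out 1 pool 0 to 2 members were called. The family ratios ran from 0.986 to 1.34 (dpr), 0.907 to 1.28 (DIP) and 0.926 to 1.31 (beat). The cause of these shifts was not tested.

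Deviations from the group means gave r of -0.01, -0.18 and -0.24 between pools of the same number, over the tested transcripts. Between pools of different number r ran from -0.08 to 0.28, and was highest for control pool 3 with alcohol pool 2. Centring within groups of 3 pools ties such values together, so they cannot show whether pools of the same number shared a culture or preparation. A replicate block called 2 member transcripts with the covariate, both lower (dpr15-RB and dpr19-RB), and 2 others without it, both higher (DIP-beta-RG and dpr10-RC), and 0 members for usage.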
